A study of Mus musculus with 4 samples.

Results

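Nuclear genes of oxidative phosphorylation were examined in bulk RNA-seq of granulosa cells (GCs) of the mouse. GCs are the somatic cells of the follicle, in layers around the oocyte. Members were the protein-coding mouse genes whose symbol begins with Ndufa, Ndufb, Ndufc, Ndufs or Ndufv and a digit, with Uqcr, with Cox4 to Cox8 or with Atp5, together with Cyc1 and Sdha to Sdhd. The rule used names and no measured value. It found 86 of the 55385 genes in the count table, with 37 assigned by symbol to complex I, 4 to complex II, 9 to complex III, 18 to complex IV and 18 to complex V. Of these, 83 passed the filter on low counts and entered the test, and the other 3 had no counts in any library.

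The GCs came from preantral follicles of Kunming mice aged 12 to 14 days, after 6 days of follicle culture. The NT4 group had neurotrophin-4 (NT-4), the ligand of the TrkB receptor, in the medium, and the Control group did not. Each group had 2 libraries, called Control 1, Control 2, NT4 1 and NT4 2, and in both groups the follicles grew in medium with fetuin, albumin and FSH. The follicles were cultured whole, so the isolated GCs could carry other follicle cells with them.

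Oxidative phosphorylation passes electrons from NADH and succinate along complexes I to IV of the inner mitochondrial membrane to oxygen, and complex V uses the proton gradient built on the way to make ATP. Apart from complex II, each complex joins subunits coded in the nucleus to a few coded by mitochondrial DNA. Several nuclear subunits, mainly of complexes IV and V, exist as variants coded by separate genes that differ between tissues. In the follicle, GCs also pass metabolites to the oocyte, and their mitochondria hold the enzyme that starts steroid synthesis.

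The assignment by symbol has exceptions that are known from background. NDUFA4, counted here under complex I, is regarded as a subunit of complex IV, and NDUFA4L2 is its relative. COX7A2L takes part in joining complexes into supercomplexes, and ATP5S is an accessory factor and no core subunit. The acyl carrier Ndufab1 and the inhibitor Atp5if1 were not among the matched symbols.

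Promoter sequences are shown for 6 members because they show how the members' start regions differ in the motifs of factors known to act on respiratory genes. RefSeq promoters of GRCm38.p6, each 300 bases from 250 before to 50 after the annotated start, matched 68 members. The letters GCGC and TGCGC with any base between them (nuclear respiratory factor 1, NRF1), CCGGAAG (GABPA, also known as NRF2), AANATGGCG (YY1) and TCAAGGTCA (ESRRA) were searched on both strands. NRF1 letters lay in 16 of the 68 promoters (23.5%), against 4.6% of all 32851 promoters of that length. GABPA letters lay in 15 (22.1% against 8.86%) and YY1 letters in 8 (11.8% against 2.38%). At least 1 of these 3 motifs was present in 34 of the 68, or 50%, against 14.2% of all promoters. ESRRA letters lay in 2 promoters, those of Sdhd and Atp5g3 (2.94% against 0.423%). Each member entered with the promoter nearest to its start in the GENCODE M21 annotation. The set of all promoters was not reduced to 1 per gene or to protein-coding genes, so the 2 sets are unlike. A match describes the letters only and was not tested as a binding site.

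The 250 bases before the start follow for 3 members with the smallest p-values between the groups that matched a promoter (Ndufa4, Ndufb5 and Atp5j2) and for 3 members whose upstream bases hold matches (Sdhd, Uqcrh and Cox6a1), each the highest per length of its complex among those matched. Each is written 5′ to 3′ on the strand of its gene, and capitals mark the matches to NRF1 and GABPA. Ndufa4 is chr6:11907451-11907700 on the minus strand, Ndufb5 is chr3:32736813-32737062 on the plus strand, and Atp5j2 is chr5:145191542-145191791 on the minus strand. Sdhd is chr9:50603850-50604099, Uqcrh is chr4:116075071-116075320 and Cox6a1 is chr5:115348959-115349208, all on the minus strand. The start is that of RefSeq, whereas the gene positions given below are those of GENCODE M21, and the starts can differ. All 250 bases of Atp5j2 lie within its GENCODE span, which ends at 145192062. Those of Ndufa4, Ndufb5, Uqcrh and Cox6a1 reach in part into theirs. The motif results hold for the RefSeq start.
Ndufa4: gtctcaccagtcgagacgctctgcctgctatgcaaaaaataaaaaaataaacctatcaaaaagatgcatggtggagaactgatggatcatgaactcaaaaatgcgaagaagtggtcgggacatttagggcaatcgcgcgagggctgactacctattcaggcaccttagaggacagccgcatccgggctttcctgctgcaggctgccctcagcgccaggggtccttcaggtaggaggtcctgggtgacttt
Ndufb5: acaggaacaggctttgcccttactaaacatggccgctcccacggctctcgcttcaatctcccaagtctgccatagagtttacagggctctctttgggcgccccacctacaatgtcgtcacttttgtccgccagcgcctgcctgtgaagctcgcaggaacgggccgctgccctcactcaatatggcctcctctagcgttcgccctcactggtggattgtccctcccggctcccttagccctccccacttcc
Atp5j2: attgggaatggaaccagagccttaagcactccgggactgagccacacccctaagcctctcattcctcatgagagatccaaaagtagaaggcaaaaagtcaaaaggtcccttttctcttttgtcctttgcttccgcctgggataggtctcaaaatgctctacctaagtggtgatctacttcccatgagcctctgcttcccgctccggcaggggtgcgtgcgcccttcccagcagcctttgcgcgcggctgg
Sdhd: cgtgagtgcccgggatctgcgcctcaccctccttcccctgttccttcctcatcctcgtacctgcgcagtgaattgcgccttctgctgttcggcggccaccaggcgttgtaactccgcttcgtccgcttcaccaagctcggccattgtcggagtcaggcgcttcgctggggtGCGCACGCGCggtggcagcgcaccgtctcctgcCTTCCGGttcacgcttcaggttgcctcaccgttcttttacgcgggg
Uqcrh: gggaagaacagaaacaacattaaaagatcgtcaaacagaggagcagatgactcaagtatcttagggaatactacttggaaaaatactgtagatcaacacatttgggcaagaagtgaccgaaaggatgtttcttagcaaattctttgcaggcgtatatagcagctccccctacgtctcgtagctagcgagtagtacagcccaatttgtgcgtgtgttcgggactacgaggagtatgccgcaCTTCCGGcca
Cox6a1: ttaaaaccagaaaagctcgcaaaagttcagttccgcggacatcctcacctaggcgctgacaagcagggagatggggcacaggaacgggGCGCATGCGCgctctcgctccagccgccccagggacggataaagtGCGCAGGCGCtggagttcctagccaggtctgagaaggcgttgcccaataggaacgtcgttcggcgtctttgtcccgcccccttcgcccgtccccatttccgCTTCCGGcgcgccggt
Cox6a1 held 2 NRF1 matches and 1 GABPA match upstream, and Sdhd held 1 of each. In Uqcrh the GABPA letters lay 10 bases before the start. Ndufa4 and Ndufb5 held none of the 4 motifs in the whole 300 bases, and Atp5j2 held YY1 letters 23 bases after the start. Ndufa6 and Atp5b, the highest per length of complexes I and V among those matched, held no match upstream and are not printed. In Ndufa6 the NRF1 letters also lay 23 bases after the start, and in Atp5b the YY1 letters lay 16 bases after it.

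The libraries held 49520092 to 78704020 counts, where about 4 counts were taken as 1 read pair, and 22363 to 23052 genes had a count above 0. All 10 granulosa markers were present, with summed levels in CPM (counts scaled by library size) of 12110, 14260, 10880 and 15580 in Control 1, Control 2, NT4 1 and NT4 2, in the order used throughout. Inha was the largest part of the sum, with 6626, 7978, 5821 and 8870 CPM. The markers differed in direction: 7 were highest in NT4 2 (29.3% of all genes), 1 in Control 2 (20.8%) and 2, Amh and Amhr2, in NT4 1 (26.5%). Amh measured 299, 151, 391 and 91.5 CPM. Markers of theca and stroma were higher in NT4, at 713, 720, 1052 and 834 CPM in sum, and 5 of 7 did not overlap between groups, against 13.4% of all genes with NT4 higher. Dcn and Lum had an unadjusted edgeR p under 0.05 (1.05% of all genes were higher at that p), and the sum was highest in NT4 1. Its part in the values of the members was not tested. The 9 oocyte markers summed to 69.9 to 100 CPM, the 5 endothelial markers to 19.1 to 27.4, the 5 erythroid markers to 3.23 to 5.60, the 6 macrophage markers to 1.03 to 2.15, and the 6 markers of the ovarian surface to 0.448 to 0.986 with Upk1b and Krt19 at 0. In bulk libraries, fewer cells of a type and less RNA per cell cannot be told apart.

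The 86 genes together took 1.16%, 1.20%, 1.13% and 1.33% of all counts in Control 1, Control 2, NT4 1 and NT4 2. The share was highest in NT4 2 and lowest in NT4 1, with both Control libraries between them. Complex I took 0.285%, 0.291%, 0.271% and 0.341% of the counts. Complex II took 0.0698%, 0.0728%, 0.0685% and 0.0750%, and complex III 0.132%, 0.136%, 0.129% and 0.152%. In each of these 3 complexes NT4 1 was the lowest library and NT4 2 the highest. Complex IV followed with 0.194%, 0.195%, 0.183% and 0.216%. Complex V, whose catalytic core is coded by long and abundant messages, took the most counts with 0.476%, 0.505%, 0.477% and 0.543%. For complex V the lowest library was Control 1, and NT4 2 was again the highest.

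Levels were compared between genes only per transcript length, as TPM (counts per base scaled to the same sum in each library). The median level over the tested members, each a mean of the 4 libraries, was 145 TPM for complex I, 185 for complex II, 246 for complex III, 298 for complex IV and 378 for complex V, and 212 over all 83. The medians thus increased from complex I to complex V, with wide overlap between single genes. The order of complexes IV and V depended on the length used, since coding length gave 561 TPM for complex IV and 453 for complex V.

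Each complex had its own range. In complex I it ran from 10.4 ± 8.31 TPM for Ndufa4l2 (SD over the libraries of both groups, n = 4) to 520 ± 174 for Ndufa6, an accessory subunit of the matrix arm, and in complex II from 109 ± 2.15 for Sdhc to 212 ± 6.68 for Sdhd, both membrane anchors. In complex III it ran from 203 ± 6.71 TPM for Uqcrfs1, the Rieske iron-sulfur protein, to 653 ± 87.5 for Uqcrq, a small membrane subunit. In complex IV it ran from 0.275 ± 0.334 TPM for the muscle variant Cox6a2, which was at 0 in 2 of the 4 libraries, to 960 ± 73.8 for its ubiquitous counterpart Cox6a1. In complex V it ran from 7.17 ± 1.24 TPM for Atp5s to 1333 ± 44.5 for Atp5b, the catalytic beta subunit and the highest of all members. The level of Ndufa6 is uncertain, because the length used, 382 bases, was shorter than its coding length of 393 bases. No member of complexes II and III was below 109 TPM.

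**Figure D1:**
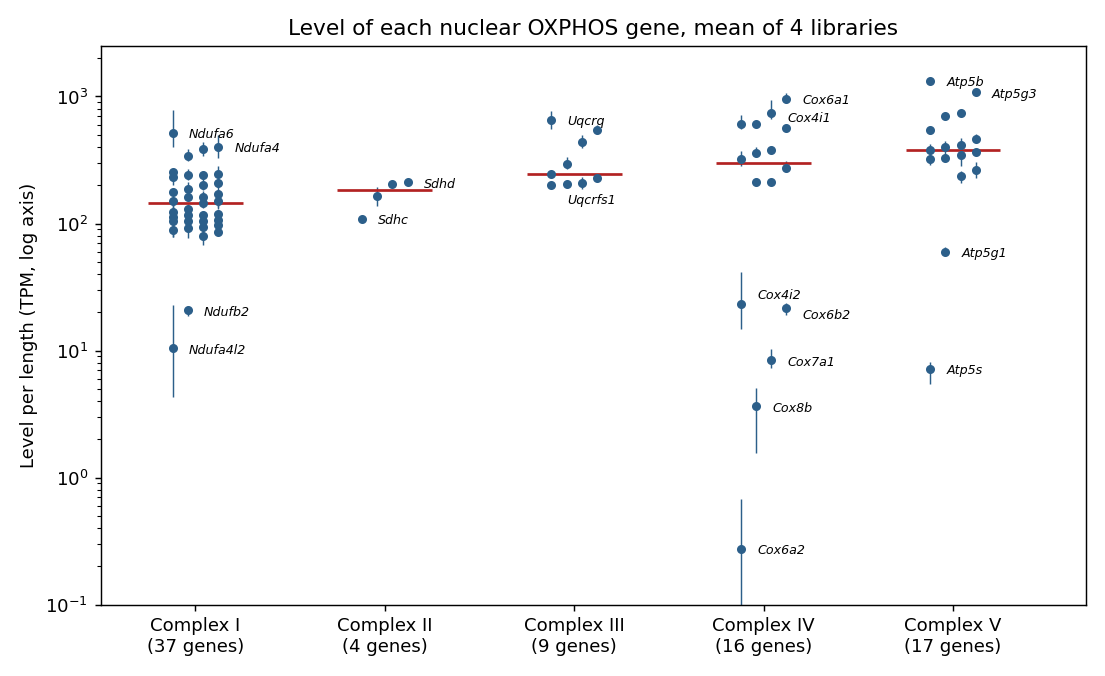
Level per transcript length of each of the 83 tested nuclear genes of oxidative phosphorylation, on a log axis in TPM and grouped by complex. Points are means of the 4 libraries, vertical lines run from the lowest to the highest library, red bars are the median of the complex, and the line of Cox6a2 leaves the axis because that gene was at 0 in 2 libraries. The medians run from 145 TPM in complex I to 378 TPM in complex V.

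The comparison of the design asked how NT-4 in follicle culture changed these genes in GCs. With edgeR's quasi-likelihood test on all 19259 genes, 0 of the 83 members passed an adjusted p of 0.05, and so did 0% of all genes. The smallest adjusted p among members was 0.9999, and DESeq2's Wald test called 0 members at an adjusted p of 0.05, against 0.338% of all genes (65 genes). Its smallest adjusted p among members was 0.222, and 4 members had an unadjusted DESeq2 p under 0.05, against 2.26% of all genes. At an unadjusted edgeR p under 0.05 there were 4 members, against 1.99% of all genes tested. Of these, 3 were higher in NT4 (Ndufa4, Ndufa4l2 and Atp5j2; 1.05% of all genes) and 1 was lower (Ndufb5; 0.935% of all genes). The study's criterion joins an edgeR p under 0.05, taken here as unadjusted, to a fold above 2 or under 0.5. It was met by Ndufa4l2 alone, and by 1.08% of all genes.

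In 14 members both NT4 libraries lay above, or both below, the Control libraries, against 26.0% of all genes. In 12 of them NT4 was higher (13.4% of all genes) and in 2 it was lower (12.7%). So 69 of the 83 members overlapped between the groups. The fitted log2 fold change of NT4 over Control was nonetheless above 0 in 68 members and below 0 in 15, whereas 51.0% of all genes were above 0. Its median was 0.10 over the members and 0.0045 over all genes tested.

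The medians of the 5 complexes ranged from 0.074 to 0.12. The median log2 fold change was 0.095 in complex I, where 28 of 37 members were above 0, and 0.074 in complex II, where 3 of 4 were. It was 0.10 in complex III with 8 of 9 above 0, 0.12 in complex IV with 13 of 16, and 0.12 in complex V with 16 of 17. The 12 higher members without overlap were 4 of complex I (Ndufa4, Ndufa4l2, Ndufc2 and Ndufs1), 1 of complex II (Sdhc), 2 of complex III (Uqcrc2 and Uqcrfs1), 1 of complex IV (Cox5a) and 4 of complex V (Atp5d, Atp5e, Atp5j2 and Atp5mpl). The lower ones were Ndufb5 in complex I and Cox4i1 in complex IV. No complex held a member that passed the adjustment.

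NT4 2 was the library with the highest level for most members. It was the highest of the 4 in 67 of the 83 members, against 29.3% of all genes tested. Control 1 was highest in 8 members (23.4% of all genes), Control 2 in 6 (20.8%) and NT4 1 in 2 (26.5%). Between the libraries of the NT4 group, the median log2 difference of NT4 2 over NT4 1 was 0.28 over members, and 78 of 83 were higher in NT4 2, against 50.7% of all genes. Between the Control libraries the median was 0.079 in favour of Control 2, with 58 of 83 members higher there, against 50.0% of all genes.

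Across groups, NT4 1 lay 0.016 below Control 1 in the median (38 of 83 members higher) and 0.094 below Control 2 (27 of 83 higher). NT4 2 lay 0.28 above Control 1 (73 of 83) and 0.20 above Control 2 (72 of 83). Over all members, most were above Control in both comparisons with NT4 2 and in neither with NT4 1. NT4 1 was nonetheless above Control 1 in 10 of 16 members of complex IV and 12 of 17 of complex V. By complex, NT4 2 exceeded NT4 1 by a median of 0.32 in complex I, 0.13 in complex II, 0.31 in complex III, 0.25 in complex IV and 0.23 in complex V. Leaving out NT4 2 turned the median of all members to −0.038, with 61 of 83 below 0, and leaving out NT4 1 raised it to 0.23 with 73 above 0. Without Control 1 the median was 0.061, with 60 above 0, and without Control 2 it was 0.13, with 68.

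**Figure D2:**
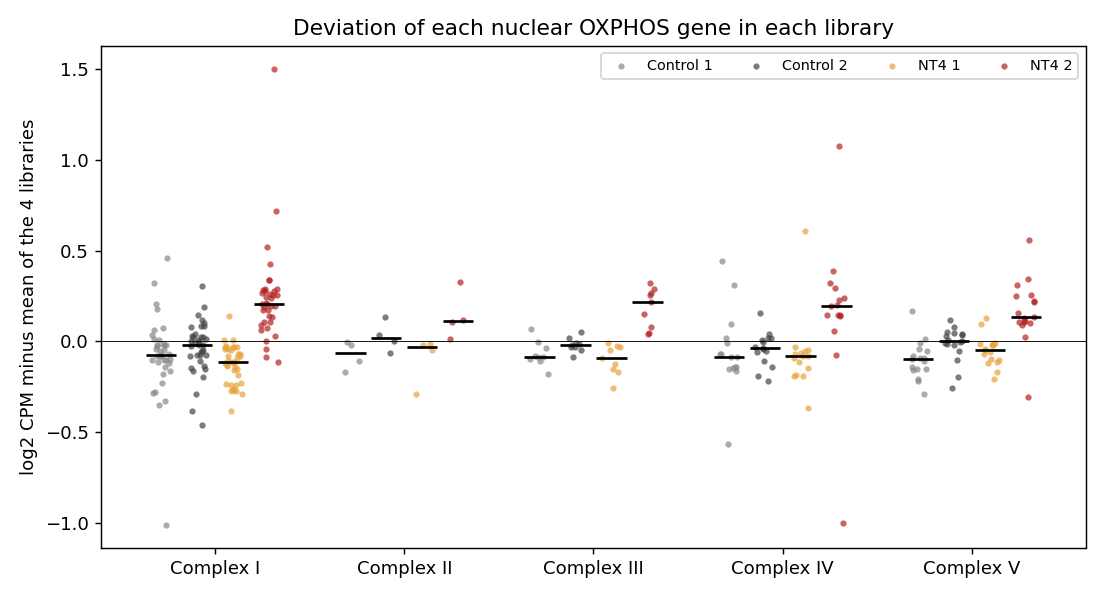
Deviation of each member's log2 CPM from its mean over the 4 libraries, by complex and library, with black bars at the median of the complex. Cox6a2, at 0 in 2 libraries, is left out, and NT4 2 lies above 0 in the median of each complex while NT4 1 lies below it.

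**Figure D3:**
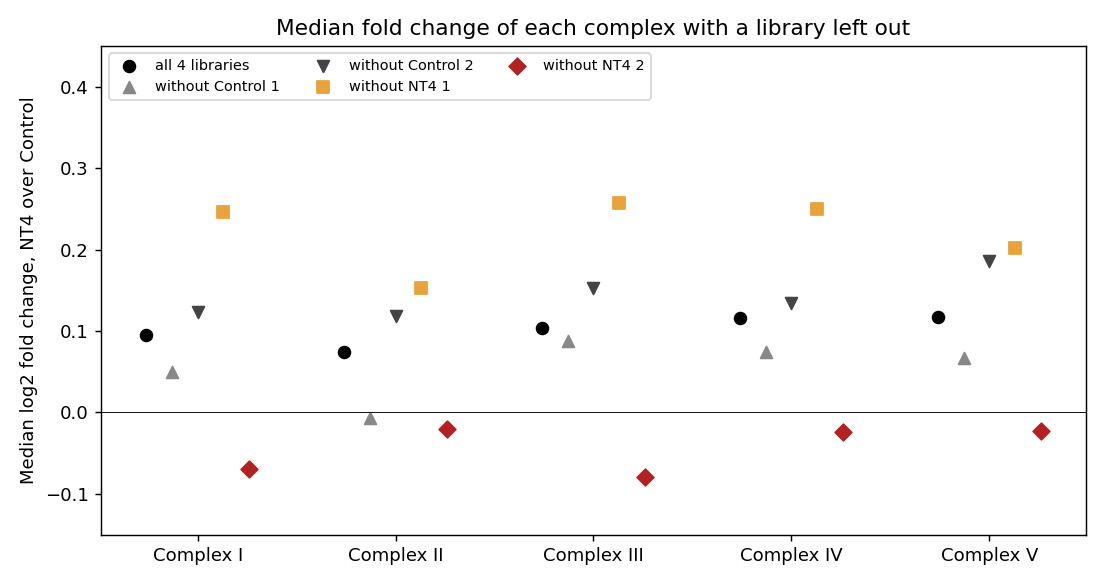
Median log2 fold change of NT4 over Control in each complex with all 4 libraries and with each library left out. Without NT4 2 the median is below 0 in all 5 complexes, and without NT4 1 it is the highest of the settings drawn.

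Transcript length moved with the same pattern. Of protein-coding genes that are not members, the 1180 with a transcript of 1000 bases or fewer had a median log2 difference of 0.22 between NT4 2 and NT4 1, and 74.1% were higher in NT4 2. The 13587 with longer transcripts had a median of 0.0010, with 50.1% higher. Members with a transcript of 1000 bases or fewer, 56 genes, had a median of 0.30, and the 27 longer members had a median of 0.21, with 26 of 27 higher in NT4 2. Short members and long members were thus both higher in NT4 2, and the part of transcript length in the fold changes of members was not tested.

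Among the 4 members at an unadjusted p under 0.05, Ndufa4 had the smallest p. It lies on GRCm38 chromosome 6 from 11900292 to 11907497 (ENSMUSG00000029632). Its levels were 84.9 and 83.9 CPM in Control and 113 and 138 CPM in NT4. Both NT4 libraries were above both Control libraries, and the gap exceeded the spread within either group. The fitted log2 fold change came to 0.58 (SE 0.14), edgeR unadjusted p = 0.0082. With each library left out in turn the value lay between 0.42 and 0.70, and the unadjusted edgeR p between 0.0031 and 0.047. Each such fit, here and for the members that follow, leaves 1 library in a group and assumes that it varies like the other group, so its p does not show that the difference would hold in further samples.

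Atp5j2 codes for subunit f, in the membrane part of the ATP synthase (chromosome 5, 145183698 to 145192062, ENSMUSG00000038690). It measured 118 and 120 CPM in Control and 142 and 211 CPM in NT4. The Control libraries lay close together and NT4 2 was far above NT4 1. The log2 fold change was 0.57 (SE 0.21), edgeR unadjusted p = 0.037, and it was 0.26 without NT4 2 with an unadjusted edgeR p of 0.11. Leaving out Control 1 or Control 2 also ended an unadjusted edgeR p under 0.05, with 0.099 and 0.068.

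Ndufb5, an accessory subunit in the membrane arm of complex I, was the lower gene of the 4 (chromosome 3, 32736990 to 32751566, ENSMUSG00000027673). It measured 97.2 and 94.9 CPM in Control and 72.8 and 81.0 CPM in NT4. Here both NT4 libraries were below both Control libraries, against the direction of most members. The fitted log2 fold change came to −0.32 (SE 0.12), edgeR unadjusted p = 0.040. With each library left out in turn it lay between −0.40 and −0.25, and its unadjusted edgeR p stayed under 0.05 without NT4 2 (0.033) and not without NT4 1 (0.11), Control 1 (0.21) or Control 2 (0.19). On the opposite strand its exons overlap those of Mrpl47, and reads of the overlap cannot be told apart if counting ignored the strand.

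Ndufa4l2 is the relative of Ndufa4 that is known to be induced by low oxygen (chromosome 10, 127514967 to 127517154, ENSMUSG00000040280). It measured 2.23 and 3.27 CPM in Control and 4.40 and 12.7 CPM in NT4. The groups did not overlap, but NT4 2 alone stood far from the other 3 libraries, at 3.86 times their mean. The log2 fold change was 1.64 (SE 0.54), edgeR unadjusted p = 0.028. The edgeR test without NT4 2 gave 0.67, with an unadjusted p of 0.14, and without Control 1 it gave 1.38, with an unadjusted p of 0.060.

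**Figure D4:**
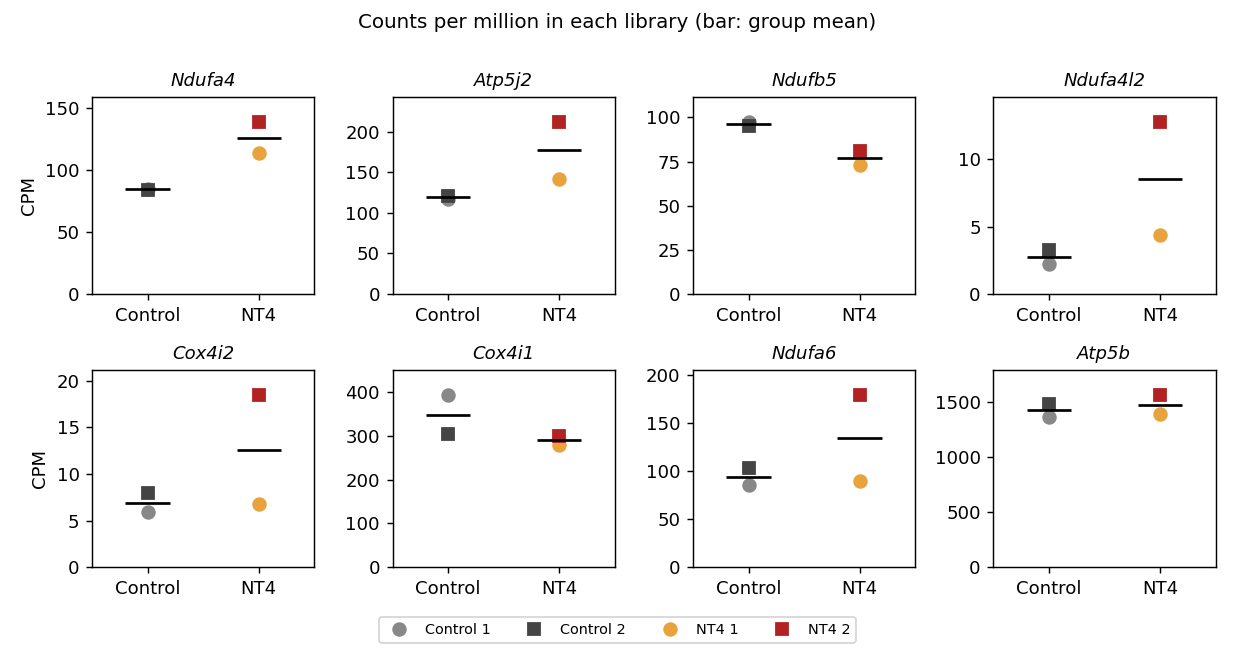
CPM of 8 members in each library (linear axes from 0), with group means as black bars. Ndufa4 and Atp5j2 are higher and Ndufb5 lower in both NT4 libraries, Ndufa4l2, Cox4i2 and Ndufa6 are highest in NT4 2, Cox4i1 is highest in Control 1, and Atp5b overlaps between the groups.

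Variant genes of complex IV and NDUFA4 were compared with their ubiquitous counterparts. Cox4i2, the variant of subunit 4 known from lung and from responses to low oxygen, lies on chromosome 2 from 152754173 to 152765037. It measured 5.92 and 7.92 CPM in Control and 6.77 and 18.4 CPM in NT4. NT4 1 lay between the Control libraries and NT4 2 above all others. Its log2 fold change of 0.86 (SE 0.49) had an edgeR unadjusted p of 0.13 and turned to −0.034 without NT4 2. Cox4i1, the common form of subunit 4 (chromosome 8, 120668222 to 120674207), measured 392 and 304 CPM in Control and 278 and 300 CPM in NT4. Control 1 stood above the other 3 libraries, which differed little. The log2 fold change was −0.27 (SE 0.16), edgeR unadjusted p = 0.15, and −0.074 without Control 1.

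As a share of the summed level per length of the gene pair, Cox4i2 made up 1.54%, 2.63%, 2.45% and 5.96% of subunit 4 messages in Control 1, Control 2, NT4 1 and NT4 2. Ndufa4l2 made up 1.28%, 1.88%, 1.88% and 4.34% of the sum with Ndufa4, and 2.42%, 3.54%, 3.53% and 7.98% with coding length in place of transcript length. In both pairs NT4 1 did not exceed Control 2, and NT4 2 held the largest share. The common form made up most of the messages in every library.

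The 11 genes of a list for the response to low oxygen, chosen after the values of these variants were seen, summed to 1061, 1294, 1087 and 1709 CPM. The sum was highest in NT4 2, and NT4 1 lay between the Control libraries. Ldha, lactate dehydrogenase A, made up most of it with 710, 896, 744 and 1240 CPM. Of the 11 genes, 7 were highest in NT4 2, against 29.3% of all genes, and the others were Car9 (highest in Control 1), Ndrg1 and Pfkfb3 (Control 2) and Adm (NT4 1). Bnip3 measured 102, 129, 99.2 and 192 CPM and Egln3 1.24, 1.04, 0.417 and 3.75 CPM. In 3 genes of the list both NT4 libraries lay above both Control libraries, against 13.4% of all genes. These were Pdk1, with 51.3, 52.8, 61.5 and 63.7 CPM, and Ankrd37 and Adm, whose edgeR log2 fold changes were 0.82 ± 0.38 and 0.51 ± 0.28 (SE). The 1 gene of the list with both NT4 libraries below both Control libraries (12.7% of all genes), Pfkfb3, measured 60.5, 61.2, 31.3 and 27.0 CPM, with an edgeR unadjusted p of 0.00052 (adjusted p 0.667). A list of 8 pericyte markers, chosen at the same stage because pericytes are known to carry both variants, summed to 48.1, 43.4, 61.5 and 55.6 CPM, with Higd1b at 0 in all libraries. The part of either list in the levels of Ndufa4l2 and Cox4i2 was not tested.

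The other variants of complex IV were minor forms too. Cox6b2, known from testis, made up 3.86%, 2.96%, 3.48% and 3.39% of the sum with Cox6b1. Cox7a1, a heart and muscle form, made up 2.81%, 2.11%, 2.52% and 2.68% of the sum with Cox7a2. Their shares overlapped between the groups, and coding length in place of transcript length lowered both without separating the groups. Cox8b, another muscle form, made up 0.838%, 0.565%, 0.918% and 0.265% of the sum with Cox8a, and measured 0.337 to 1.03 CPM. Cox6a2 had 8 counts in Control 1, 16 in NT4 1 and 0 in the other libraries, where 0 allows up to 0.156 to 0.163 CPM, and no fold is given.

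Of the 3 members at 0, Cox8c and Cox7b2 are known as forms of the testis. The remaining one was a further identifier of Atp5o (ENSMUSG00000116933), all of whose exons overlap other genes on its strand. A count of 0 allows up to 3 read pairs per library, which is 0.156 to 0.239 CPM. Expression below that level was not detectable at this depth. The limit does not cover the further identifier of Atp5o, whose reads may have been counted for the genes it overlaps.

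Subunit c of the ATP synthase is coded by 3 genes that yield the same mature protein and differ in the targeting peptide. Atp5g3 made up 59.5%, 55.9%, 57.2% and 57.6% of their summed level per length, Atp5g2 37.5%, 40.9%, 39.7% and 39.0%, and Atp5g1 3.02%, 3.17%, 3.11% and 3.47%. The proportions were thus close in all libraries. The share of Atp5g1 depended on the length used, and was 11.6% to 13.2% with coding length. Its counts are also uncertain, since 6 near-identical copies elsewhere in the genome held counts equal to 36.4% of its own.

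The core of complex I carries the flavin and iron-sulfur centres that take electrons from NADH. Ndufv1, which binds NADH, measured 93.8, 77.2, 69.0 and 87.8 CPM, with a log2 fold change of −0.12 (SE 0.18). Ndufs1, which carries iron-sulfur centres, did not overlap between groups, with 120.8, 128.4, 128.5 and 133.2 CPM, but Control 2 and NT4 1 were almost equal and the log2 fold change was 0.071 (SE 0.11). Ndufv2, Ndufs3, Ndufs7 and Ndufs8 had log2 fold changes of 0.10, 0.072, 0.10 and 0.085, each smaller than its SE. The other core genes named here overlapped between groups, and none had an unadjusted edgeR p under 0.05.

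Among accessory subunits of complex I, Ndufa6 was uneven between libraries, with 85.1 and 103 CPM in Control and 89.0 and 178 CPM in NT4. NT4 1 lay between the Control libraries, and NT4 2 was 1.93 times the mean of the other 3. The log2 fold change of 0.51 (SE 0.33), edgeR unadjusted p = 0.19, turned to −0.080 without NT4 2. Ndufs4, which is lost in a known mouse model of complex I deficiency, showed an uneven pattern too, with 127 and 182 CPM in Control and 123 and 229 CPM in NT4. Both libraries numbered 2 were above both libraries numbered 1.

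Complex II feeds electrons from succinate into the chain. Sdha, its flavoprotein, measured 335, 345, 325 and 338 CPM with a log2 fold change of −0.034 (SE 0.11), and Sdhb, its iron-sulfur protein, 94.7, 117, 87.2 and 133 CPM with 0.060 (SE 0.24). Sdhb varied far more between libraries than Sdha. The anchor Sdhc measured 121.8, 118.2, 122.1 and 133.2 CPM, without overlap but with Control 1 and NT4 1 almost equal. The other anchor, Sdhd, measured 137, 148, 146 and 161 CPM. The log2 fold changes of Sdhc and Sdhd were 0.088 (SE 0.12) and 0.10 (SE 0.12). Without NT4 2 they were 0.023 and 0.034, and without NT4 1 they were 0.14 and 0.16. That of Sdhd was 0.045 without Control 1.

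In complex III, which passes electrons from ubiquinol to cytochrome c, Cyc1 codes for cytochrome c1 and had the smallest p of the complex. It measured 157, 174, 172 and 213 CPM, with a log2 fold change of 0.21 (SE 0.15) and an edgeR unadjusted p of 0.21. Without NT4 2 its log2 fold change was 0.052, and without NT4 1 it was 0.35. The Rieske protein gene Uqcrfs1 measured 148, 152, 154 and 174 CPM, with a log2 fold change of 0.13 (SE 0.12). That value was 0.038 without NT4 2 and 0.21 without NT4 1. Uqcrc1 and Uqcrc2, the core proteins, had log2 fold changes of −0.044 (SE 0.12) and 0.068 (SE 0.11). NT4 2 was the highest library for Cyc1, Uqcrfs1 and Uqcrc2, and Control 2 for Uqcrc1.

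Complex IV reduces oxygen. Of its common nuclear subunits, Cox5a measured 74.3, 76.0, 76.2 and 86.2 CPM, without overlap, with a log2 fold change of 0.11 (SE 0.12). Cox5b measured 104, 129, 110 and 120 CPM, with −0.013 (SE 0.15), and the groups overlapped. Cox6a1, the most abundant per length, measured 281, 312, 292 and 363 CPM, with 0.14 (SE 0.15). Apart from the variants above, the highest log2 fold change of complex IV was 0.22 (SE 0.18) for Cox7c, a small membrane subunit.

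In the catalytic part of complex V, Atp5a1 (alpha) measured 987, 1058, 946 and 1107 CPM and Atp5b (beta) 1368, 1483, 1389 and 1561 CPM. Their log2 fold changes were 0.0057 (SE 0.12) and 0.049 (SE 0.11), and both overlapped between groups. The rotor genes Atp5c1 (gamma), Atp5d (delta) and Atp5e (epsilon) had log2 fold changes of 0.12, 0.15 and 0.20. Atp5e measured 103 and 102 CPM in Control and 109 and 128 CPM in NT4, without overlap, with an edgeR unadjusted p of 0.18. Atp5mpl, a small membrane proteolipid, measured 65.6 and 57.4 CPM in Control and 70.3 and 71.0 CPM in NT4. The NT4 libraries lay close together and above both Control libraries. The log2 fold change of Atp5mpl was 0.20 (SE 0.13), with an edgeR unadjusted p of 0.18. Without Control 1 that log2 fold change was 0.30, and without Control 2 it was 0.11. The peripheral stalk genes Atp5f1, Atp5h, Atp5j and Atp5o had log2 fold changes of 0.11, 0.16, 0.0065 and 0.013.

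Near-identical copies limit some of these counts. Of the 86 members, 33 had at least 1 copy elsewhere with at least 90% identity over at least 80% of the shorter transcript, 90 copies in all. In 8 members the copies held more than 10% of the member's own counts, and their levels are uncertain. These were Ndufa12 (190%), Atp5g1 (36.4%), Cox7a2l (35.7%), Atp5l (32.5%), Uqcr11 (27.9%), Atp5h (23.3%), Cox5b (17.0%) and Uqcrb (10.6%). Summing each member with its copies left the median log2 fold change at 0.10, with 69 members above 0 and 4 at an unadjusted edgeR p under 0.05, against 1.99% of all genes in the same fit.

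Other genes of the pathway were counted by lists. Of 53 assembly factors, proteins that build the complexes and leave them, 1 was higher (against 1.05% of all genes) and 0 were lower (0.935%) at an unadjusted edgeR p under 0.05, a count near the background, and the median log2 fold change was 0.038. The higher one was Cox16, with 18.4 and 17.7 CPM in Control and 22.2 and 26.4 CPM in NT4 and a log2 fold change of 0.43 (SE 0.17). Of 14 genes of mitochondrial transcription and biogenesis, 0 were higher and 1 was lower, against the same 1.05% and 0.935% of all genes, with a median of −0.032. That gene was Pprc1, a coactivator related to PGC-1alpha, with 81.0 and 68.2 CPM in Control and 40.0 and 52.0 CPM in NT4. The log2 fold change of Pprc1 was −0.70 (SE 0.18), and edgeR gave an unadjusted p of 0.011 and an adjusted p of 0.9999.

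The 13 subunits coded by mitochondrial DNA took 4.32%, 3.51%, 3.94% and 3.97% of the counts. None had an unadjusted edgeR p under 0.05, and the median log2 fold change was 0.028. Their highest library was mostly Control 1. Control 1 was higher than Control 2 in all 13, by 0.43 on the log2 scale in the median, and NT4 2 lay 0.065 above NT4 1. Cycs, cytochrome c, measured 147, 165, 135 and 183 CPM, and the acyl carrier Ndufab1 48.3, 46.0, 45.6 and 66.5 CPM, and neither passed an unadjusted edgeR p of 0.05.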

How the data were processed

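Bulk RNA-seq was done on GCs of 4 libraries, 2 per group, grouped by their labels. By the study's methods, the 2 GC samples of a group came from independent experiments. The study's follicle cultures were run for all groups side by side, but no source used here ties the replicate numbers of these libraries to an experiment. By their methods and labels, the authors trimmed reads with Cutadapt, mapped them by HISAT2 to GRCm38 (Ensembl v99; mm10 in the labels), and estimated expression with StringTie and ballgown. Deposited were expected counts per gene, as whole numbers and not normalized. Libraries were stranded by U-labelling of the second strand, but the use of strand in counting and the step to whole counts are not given in the sources used here. Counts of single libraries and of the series table were identical in 4 of 4 libraries. Between 45.4% and 46.2% of counts from 1 to 12 sat at 4, 8 or 12, so 1 read pair was taken as about 4 counts. Totals of 49520092 to 78704020 counts correspond to an estimated 12380023 to 19676005 read pairs. Limits at a count of 0 (3 read pairs) cover counting error only.

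Identifiers were matched to GENCODE M21 (GRCm38) for 55144 of 55385 rows. Of 90 rows whose symbol fits the pattern, 4 were pseudogenes and left out. Tests used edgeR 4.0.16 in R 4.3.3 (quasi-likelihood, TMM, default filter on low counts, group only, two-sided), with Benjamini-Hochberg adjustment over 19259 genes, and were tested on simulated data. Per-library log2 values used a prior count of 2, and CPM were scaled by TMM, whereas shares of counts used raw totals. TPM used the median length of GENCODE basic protein-coding transcripts. With 2 libraries per group, no permutation test can reach 0.05, and edgeR shares its estimate of spread across genes. Near-identical copies were found with blastn 2.17.0.

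Members named with values were those at an unadjusted p under 0.05, the 2 smallest p and the highest and lowest level per length of each complex, core and variant subunits fixed by name, and all members at 0. The values of 1 such core gene are not reported here. Ndufs4, Cox7c and the genes of the lists for low oxygen and pericytes were named after their values were seen. The members and lists were chosen with earlier results of these data known. Alternatives were DESeq2 1.42.0 (size factors, Wald test), library totals, no filter, a CPM filter of 1, counts divided by 4, protein-coding genes, other lengths, each library left out, the replicate number as a block and, chosen after seeing the data, copies summed.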

Additional observations from a re-analysis of the deposited data

How the results depend on the processing

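The median log2 fold change of all members was above 0 in every alternative except that without NT4 2. Among named members refitted under the alternatives, 154 log2 fold changes kept their direction and 2 reversed. The edgeR adjusted p of these members with all 4 libraries was 0.9999, so staying above 0.05 shows no stability. The limits are few libraries: results for members rested on NT4 2 more than on any normalization. With each library left out in turn, members at an unadjusted edgeR p under 0.05 numbered 1 (without Control 1, against 2.71% of all genes in that fit) to 11 (without NT4 1, 4.24%). Those meeting the study's criterion numbered 0 (without Control 1, 1.99%, or NT4 2, 1.93%) to 2 (without NT4 1, 1.68%). Those without overlap numbered 31 (without Control 1, 56.9%) to 71 (without NT4 1, 68.7%), where 3 libraries separate more easily. The median log2 fold change ranged from −0.038 to 0.23 over all members, from −0.070 to 0.25 in complex I, from −0.021 to 0.15 in complex II (−0.0072 without Control 1), from −0.079 to 0.26 in complex III, from −0.024 to 0.25 in complex IV and from −0.023 to 0.20 in complex V. Each lowest value was without NT4 2 and each highest without NT4 1. Without NT4 2 the log2 fold change of Cox4i2 turned to −0.034 and that of Ndufa6 to −0.080, and without NT4 1 they were 1.40 and 0.92. The cause was not tested.

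Levels per length depended on the length. Coding length gave median TPM of 162.2, 234.2, 236.5, 560.7 and 453.4 in complexes I to V. The longest transcript gave 130.5 in complex I, 216.0 in II, 260.8 in III, 293.6 in V and 185.7 over all members. The share of complex II, with protein-coding counts as the denominator, was 0.0755%. With library totals in place of TMM, the median over all genes shifted to −0.016 and that of members to 0.081, with 64 of 83 above 0.

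With the replicate number as a block, 4 members had an unadjusted edgeR p under 0.05, against 3.01% of all genes in that fit (580 genes, and 383 without the block). Of the members 0 passed the adjustment, and their median was 0.096. Deviations of same-numbered libraries correlated at 0.14 (Pearson) and 0.26 (Spearman) across genes, which are not independent, and at 0.83 and 0.42 across the members. Without Cox6a2, at 0 in both libraries numbered 2, the values across members were 0.57 and 0.40. With 2 pairs and no label that ties the numbers to an experiment, the libraries were not treated as paired, although the groups were cultured side by side. Averaged over the groups, the difference of libraries numbered 2 over those numbered 1 was above 0 in 71 of 83 members. Its median was 0.17 (0.16 using size factors of DESeq2 and 0.14 using library totals), against 0.0019 over all genes. The difference was above 0 in 78 of 83 members within NT4 and in 58 within Control.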

Other observations

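Processed copies of these genes also carried counts. Gm15920, a processed pseudogene with 99.5% identity to Ndufa12, held 3670, 6602, 4114 and 6979 counts in Control 1, Control 2, NT4 1 and NT4 2, more than Ndufa12 itself in each library. Gm6969, a processed pseudogene of Cox7a2l with 97.7% identity, held 3531, 5576, 5236 and 7227 counts. Of the 4 pseudogenes whose symbols fit the pattern of the members, Ndufb4c held 164, 253, 199 and 423 counts, Cox6c2 184, 227, 181 and 258, Ndufs6b 36, 69, 83 and 73, and Ndufa11b none. Reads of a parent gene and of such a copy can be split by the counting, and which of them gave these counts was not tested.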
